A study of Mus musculus with 2 samples.

Results

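The genes described here are 9 genes of islet cell contact and guidance: the Slit receptors Robo1 and Robo2, the ligands Slit1 and Slit2, the cadherins Cdh1 and Cdh2, the adhesion molecules Ncam1 and Epcam, and Gjd2, which encodes the gap junction protein connexin 36. They were taken by gene symbol, as 9 of the 46983 genes counted. They were measured by droplet single-cell RNA sequencing of sorted tdTomato+ islet cells from mice at postnatal day 9 (P9). The control library was Neurod1 Cre/+; Isl1f/+ and the library labelled Isl1CKO was Neurod1 Cre/+; Isl1f/f. Both groups therefore carried the Neurod1-driven Cre, which acts in endocrine precursors and endocrine cells, at least 1 floxed allele of Isl1, a LIM-homeodomain transcription factor gene, and the tdTomato reporter. Each library was made from a pool of 6 animals and is the only library of its genotype. No difference between the genotypes has a replicate check, no test was run, and every interval is an exact 95% interval that covers counting error only. Cells of 1 pool are not replicates.

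Slits are secreted ligands that bind Robo receptors on the cell surface, and the pair is best known from the guidance of axons. In the pancreas Robo receptors are known to be needed for the ordered placing of endocrine cell types within the islet. Cdh1 (E-cadherin) and Cdh2 (N-cadherin) join neighbouring cells through calcium-dependent binding, Ncam1 is an immunoglobulin-type adhesion molecule that takes part in the sorting of islet cell types, and Epcam is an adhesion molecule of epithelial cells. Connexin 36 couples beta cells electrically, so that they oscillate together.

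Promoter sequences are shown for Robo1, Robo2 and Gjd2, the members with at least 2-fold lower levels in the Isl1CKO library, and for Epcam, the member with the highest ratio there. They are the 250 bases before a RefSeq transcription start on GRCm38.p6, written 5′ to 3′ on the strand of the gene. The promoter table matched 5 of the 9 members, which are those and Slit2. Robo2 has further starts in that table, and the one printed lies next to the gene as GENCODE M21 annotates it. Cdh1, Cdh2, Ncam1 and Slit1 had no entry. Capitals mark TAAT on either strand (read as TAAT or ATTA), the core letters bound by many homeodomain proteins, and CANNTG, the E-box letters, which read the same on both strands. No marked match of either kind overlaps another.

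Robo1, chr16:72662899-72663148, plus strand: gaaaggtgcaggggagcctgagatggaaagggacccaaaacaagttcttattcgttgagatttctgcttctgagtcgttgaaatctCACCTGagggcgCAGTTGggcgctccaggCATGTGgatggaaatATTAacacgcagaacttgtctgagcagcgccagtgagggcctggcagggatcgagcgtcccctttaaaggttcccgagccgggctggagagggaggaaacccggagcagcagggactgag

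Robo2, chr16:74411826-74412075, minus strand: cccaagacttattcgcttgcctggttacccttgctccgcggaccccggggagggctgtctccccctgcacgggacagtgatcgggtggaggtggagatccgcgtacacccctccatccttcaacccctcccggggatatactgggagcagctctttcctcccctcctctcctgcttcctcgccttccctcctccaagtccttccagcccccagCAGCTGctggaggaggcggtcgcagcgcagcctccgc

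Gjd2, chr2:114013620-114013869, minus strand: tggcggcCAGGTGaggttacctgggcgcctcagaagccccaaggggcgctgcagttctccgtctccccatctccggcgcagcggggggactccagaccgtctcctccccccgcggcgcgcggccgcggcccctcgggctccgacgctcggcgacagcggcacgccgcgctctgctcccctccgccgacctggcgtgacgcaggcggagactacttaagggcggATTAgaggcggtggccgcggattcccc

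Epcam, chr17:87635729-87635978, plus strand: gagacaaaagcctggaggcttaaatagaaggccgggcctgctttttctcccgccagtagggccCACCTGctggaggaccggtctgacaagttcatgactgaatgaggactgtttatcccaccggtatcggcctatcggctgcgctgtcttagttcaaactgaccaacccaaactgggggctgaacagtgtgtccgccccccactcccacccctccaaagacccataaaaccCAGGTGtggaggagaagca

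The Robo1 window held 1 TAAT and 3 CANNTG matches, the Gjd2 window 1 of each, the printed Robo2 window 0 and 1, and the Epcam window 0 and 2. The further Robo2 windows, which begin at 75092771 and 75447294, each held 1 TAAT and 1 CANNTG match. Of 32851 promoter windows of this length, 54.9% held TAAT and 66.2% held CANNTG, so a match is common and is given as a description only. The Robo1 start of this table lies in an intron of the gene as GENCODE M21 annotates it. The window before Gjd2 also overlaps exons of A530058N18Rik, a noncoding gene on the opposite strand.

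In GRCm38 the receptors lie near each other on chromosome 16, Robo1 at 72308306 to 73046095 on the plus strand and Robo2 at 73891839 to 74411825 on the minus strand. Slit1 is on chromosome 19 (41600257 to 41743665, minus), Slit2 on 5 (47983138 to 48307733, plus), Cdh1 on 8 (106603351 to 106670246, plus) and Cdh2 on 18 (16588877 to 16809246, minus). Ncam1 is on 9 (49502136 to 49798925, minus), Epcam on 17 (87635979 to 87651129, plus) and Gjd2 on 2 (114009601 to 114013619, minus). None of the 9 shares exon sequence on its own strand with another gene. Ncam1 overlaps Gm11149 and Gjd2 overlaps A530058N18Rik on the opposite strand. The labels give no strand setting for counting, so these genes' counts are uncertain to that extent.

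The control library gave 2504 cells with 72548173 UMIs (unique molecular identifiers, each 1 captured transcript), with a median of 22638.5 per cell. The Isl1CKO library gave 3020 cells with 78068592 UMIs and a median of 24906.5. Islet hormone transcripts made up 53.3% and 12.2% of the UMIs. A level is therefore given as UMIs per 1000000 UMIs outside the hormone genes Ins1, Ins2, Iapp, Gcg, Sst, Ppy, Pyy and Ghrl. A 3′ UMI level is not comparable between genes and is compared only within a gene. Levels are not adjusted for a shift shared by most genes, so an order of classes by level can depend on the scaling. Isl1 itself stood at 542 (534 to 550) in control and 525 (519 to 530) in Isl1CKO cells over all cells. The labels name no floxed exon, and 3′ tags need not fall in it, so this level checks neither the deletion nor the label. It was 282 in control and 415 in Isl1CKO insulin-high cells, and 663 in control glucagon-high and 495 in Ttr-high cells. The libraries shared 4 barcodes, 0.160% of the control cells.

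Cells were classed by transcripts. Control cells with Ins1 and Ins2 at 20% or more of their UMIs (insulin-high) numbered 898, those with Gcg at 10% or more (glucagon-high) 617, and those with Sst at 5% or more (somatostatin-high) 539. The Isl1CKO library held 383 insulin-high cells but 2 glucagon-high and 6 somatostatin-high cells. Its other classes were 1445 cells with Ttr, an alpha-cell-enriched transthyretin gene, at 5% or more (Ttr-high) and 2035 cells with 3 or more UMIs of Fev, a transcription factor gene of serotonergic neurons and immature endocrine cells (Fev-positive). These classes overlap: 1031 cells were both Ttr-high and Fev-positive, 145 insulin-high and Fev-positive, and 865 Fev-positive and in no other class. In control, 15 cells were in more than 1 class. Within 10% of a threshold lay 4 control and 31 Isl1CKO insulin-high cells and 64 Isl1CKO cells at the Ttr threshold, and 340 Fev-positive cells had exactly 3 Fev UMIs. All 6 beta markers looked for (Ins1, Ins2, Iapp, Pdx1, Nkx6-1 and Slc2a2) were counted in the insulin-high cells of both libraries, and the alpha-cell genes Gcg, Irx1, Irx2 and Gc in the Ttr-high cells. All 6 beta markers were also counted in control glucagon-high and somatostatin-high cells and in Ttr-high cells. The same alpha-cell genes were counted in the insulin-high cells of both libraries. A counted marker therefore does not tell these classes apart. In somatostatin-high control cells the gamma markers Ppy and Pyy together stood at 217486 per 1000000 non-hormone UMIs, beside 193289 for the delta markers Sst, Hhex, Ghsr and Rbp4. Ghsr, a receptor gene of delta cells, was at 0 in the Isl1CKO insulin-high, Ttr-high and Fev-positive cells.

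Robo1 was a transcript of insulin-high cells in both libraries. Its level was 43.6 (40.1 to 47.3, 580 UMIs) in control insulin-high cells and 41.7 (36.9 to 46.9, 278 UMIs) in Isl1CKO insulin-high cells, and these intervals overlap. It was 4.99 (3.65 to 6.66) in control glucagon-high cells and 0.349 (0.0423 to 1.26) in control somatostatin-high cells, the latter from 2 UMIs in 539 cells. In the Isl1CKO library it was 3.63 in Fev-positive cells (3.12 to 4.21) and 1.25 in Ttr-high cells (0.938 to 1.63). The order of the 6 classes was thus control insulin-high, Isl1CKO insulin-high, control glucagon-high, Isl1CKO Fev-positive, Isl1CKO Ttr-high and control somatostatin-high, and counting intervals of neighbours overlapped between the insulin-high classes, between glucagon-high and Fev-positive cells and between Ttr-high and somatostatin-high cells. Control barcodes with 100 UMIs or fewer, a measure of free RNA, held Robo1 at 9.89 (5.95 to 15.4). This level was above those of every class except the insulin-high ones, with an interval that overlaps that of glucagon-high cells. The Isl1CKO library held no such barcodes, so its free-RNA level is not known for any gene. A control free-RNA level set beside an Isl1CKO class is a description only.

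A Robo1 UMI was found in 42.7% of control insulin-high cells (39.4 to 46.0) and in 42.6% of the Isl1CKO ones (37.6 to 47.7). With each cell thinned to 2000 non-hormone UMIs the shares were 8.07% and 8.33%. They were 0.942% in control glucagon-high cells, 0.0770% in somatostatin-high cells and 0.246% in Ttr-high cells, against 4.81% in 52 control mesenchymal-marked cells (10 or more UMIs of fibroblast genes). A cell held at most 6 Robo1 UMIs.

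Robo2 showed another pattern: it was highest in control glucagon-high cells. Its level was lowest in Isl1CKO Ttr-high cells, with an interval that overlapped that of control somatostatin-high cells. The level was 132 (124 to 139, 1213 UMIs) in control glucagon-high cells, 76.1 (71.5 to 81.0) in control insulin-high cells and 10.5 (7.99 to 13.5) in control somatostatin-high cells. In the Isl1CKO library it was 46.6 (41.6 to 52.1) in insulin-high cells, 10.8 (9.88 to 11.7) in Fev-positive cells and 7.73 (6.92 to 8.60, 334 UMIs) in Ttr-high cells. The first 4 classes in this order (control glucagon-high, control insulin-high, Isl1CKO insulin-high, Isl1CKO Fev-positive) had intervals that did not overlap, whereas Isl1CKO Fev-positive and control somatostatin-high cells, and the latter and Isl1CKO Ttr-high cells, did overlap. Control cells with Ppy at 5% or more that fell in no class (208 cells) stood at 73.6 (63.6 to 84.7). The control free-RNA level was 31.8, above that of control somatostatin-high cells. It was also above those of Fev-positive and Ttr-high cells, whose own library gave no such measure.

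Robo2 UMIs were found in 72.3% of control glucagon-high cells and 57.8% of control insulin-high cells, and in 46.7% of Isl1CKO insulin-high and 16.5% of Ttr-high cells. Thinned shares were 22.2%, 13.5%, 9.08% and 1.63% in the same order. Robo2 is also a transcript of mesenchyme in these data. Its level was 286 (242 to 336) in the 52 mesenchymal-marked control cells and 172 (122 to 235) in the 24 of the Isl1CKO library, higher than in any endocrine class of the same library. Those cells held 148 of 2705 control Robo2 UMIs and 39 of 934 Isl1CKO ones. Summed over the 6 mesenchymal markers Col1a1, Col1a2, Col3a1, Dcn, Lum and Pdgfra, the level was 45.3 in control glucagon-high and 1.18 in Isl1CKO Ttr-high cells, against 17246 in mesenchymal-marked control cells, with none of the 6 at 0 in either class.

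UMIs of both receptors were found in part of the insulin-high cells. Robo1 was found in 42.7% and Robo2 in 57.8% of the control ones, and in 42.6% and 46.7% of the Isl1CKO ones. Shares of this size overlap without any link between the genes, and whether the overlap exceeds that was not tested. In control insulin-high cells 28.1% had UMIs of both, 14.6% of Robo1 only, 29.7% of Robo2 only and 27.6% of neither. In control glucagon-high cells 67.3% had Robo2 only, 1.30% Robo1 only and 5.02% both. In Isl1CKO insulin-high cells 22.7% had both and 33.4% neither, and in Ttr-high cells 0.623% had both and 81.1% neither. Insulin-high cells with a Robo1 UMI had a Robo2 level of 84.5 in control, and those without had 69.2, with similar depth (medians of 14967 and 14015 non-hormone UMIs).

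**Figure D1:**
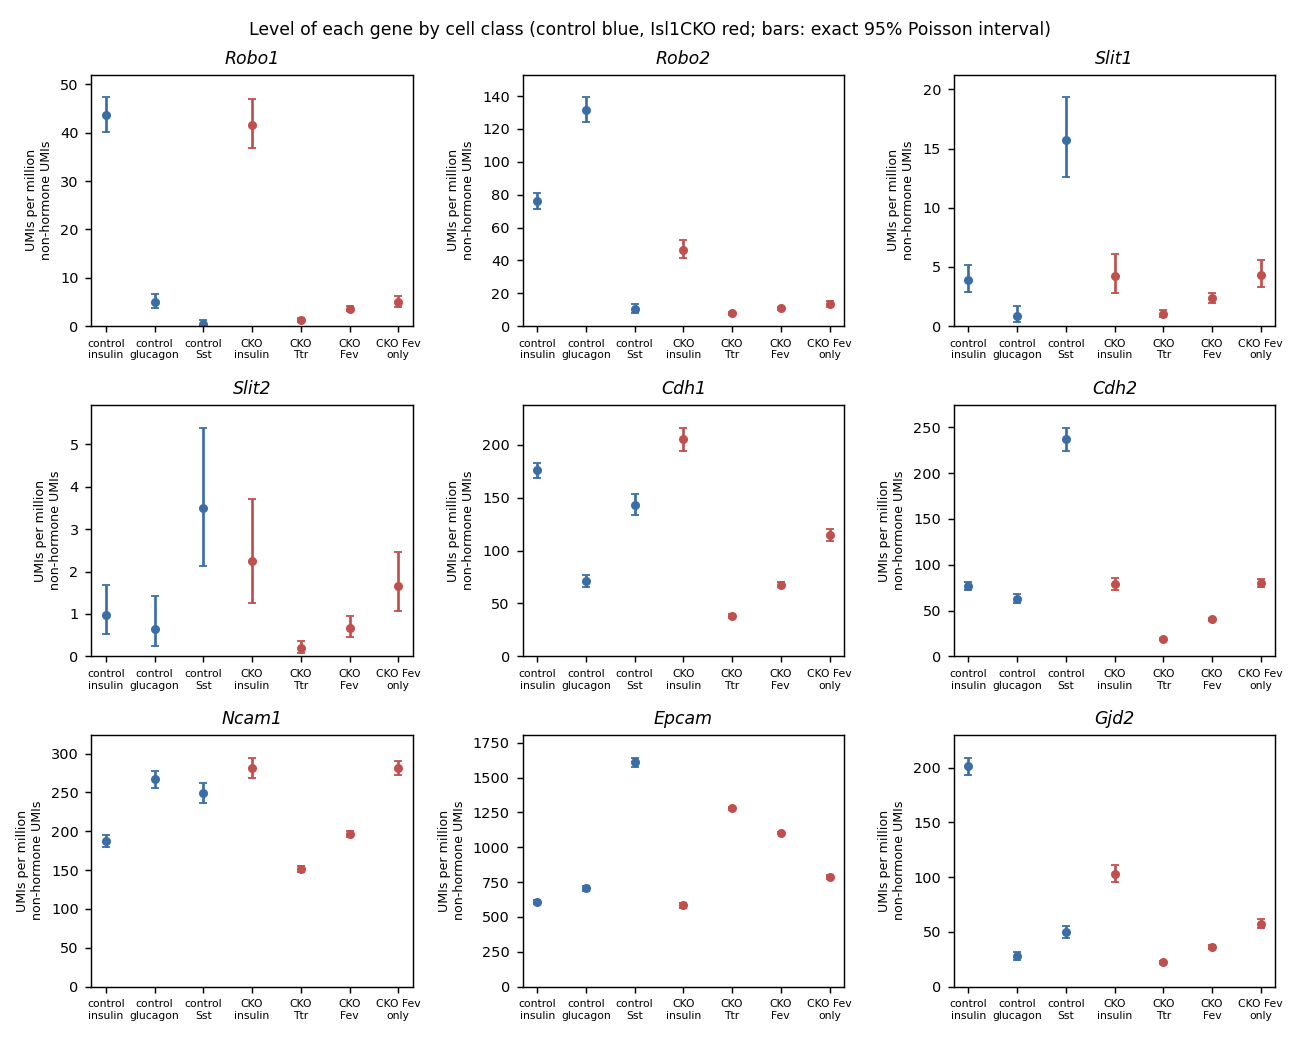
Level of each of the 9 genes (vertical axis, UMIs per 1000000 non-hormone UMIs, linear from 0) in 3 control classes (blue) and 4 Isl1CKO classes (red), with exact 95% Poisson intervals; "CKO Fev only" are Fev-positive cells in no other class. Robo1 is high in the insulin-high cells of both libraries (43.6 and 41.7), Robo2 is at 132 in control glucagon-high and 7.73 in Isl1CKO Ttr-high cells, and Epcam is highest in somatostatin-high, Ttr-high and Fev-positive cells.

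The ligands were rare in all endocrine classes. Slit1 was highest in control somatostatin-high cells, at 15.7 (12.6 to 19.3, 90 UMIs), and lower in every other class. It was 4.20 (2.79 to 6.07) in Isl1CKO and 3.91 (2.92 to 5.13) in control insulin-high cells, 2.35 (1.95 to 2.82) in Fev-positive, 1.04 (0.759 to 1.39) in Ttr-high and 0.868 (0.375 to 1.71) in control glucagon-high cells. Of neighbours in this order, only the insulin-high classes overlapped, and Ttr-high with glucagon-high cells. Slit1 UMIs were found in 14.1% of somatostatin-high cells (3.22% thinned) and in 0 of 52 and 0 of 24 mesenchymal-marked cells. The control free-RNA level was 5.21 (2.50 to 9.57), above the levels of the other 5 classes, with an interval that overlaps those of insulin-high and Fev-positive cells.

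Slit2 gave 60 UMIs in the whole control library and 75 in the Isl1CKO library. Mesenchymal-marked cells held 10 of the 60 and 21 of the 75, at levels of 19.3 (9.26 to 35.5) and 92.7 (57.4 to 142). Among the classes its level ran from 0.185 (0.0799 to 0.365) in Ttr-high to 3.49 (2.13 to 5.39) in somatostatin-high cells, the latter from 20 UMIs. Insulin-high cells stood at 0.978 (13 UMIs) in control and 2.25 (15 UMIs) in Isl1CKO, with overlapping intervals. The free-RNA level, measured in control only, was 2.60 (0.845 to 6.07).

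The cadherins ranked the classes differently. Cdh1 was highest in insulin-high cells, at 205 (194 to 216) in Isl1CKO and 176 (169 to 183) in control, followed by 143 (134 to 153) in control somatostatin-high cells. It was 70.8 (65.5 to 76.5) in control glucagon-high, 67.9 (65.6 to 70.2) in Fev-positive and 37.8 (35.9 to 39.6) in Ttr-high cells, and only glucagon-high and Fev-positive cells overlapped. Cdh2 was highest in control somatostatin-high cells, at 237 (224 to 249.5). It was 78.6 (72.0 to 85.6) and 76.6 (71.9 to 81.4) in Isl1CKO and control insulin-high cells, whose intervals overlapped. Below them were control glucagon-high cells at 62.7 (57.7 to 68.0), Fev-positive cells at 40.2 (38.5 to 42.0) and Ttr-high cells at 18.7 (17.5 to 20.1). Thinned shares for Cdh2 were 37.4% in somatostatin-high, 14.0% in control insulin-high and 3.74% in Ttr-high cells. Both cadherins were low in mesenchymal-marked control cells, at 3.86 for Cdh1 and 13.5 for Cdh2, from few UMIs (517793 non-hormone UMIs in all). The control free-RNA levels were 69.8 for Cdh1 and 43.7 for Cdh2. The Cdh1 value lay within the intervals of control glucagon-high and Isl1CKO Fev-positive cells and above the level of Ttr-high cells. The Cdh2 value was higher than the levels of Fev-positive and Ttr-high cells.

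Ncam1 varied least across the classes, over 0.89 log2 units, and Epcam over 1.46, whereas Robo1 spanned 5.05 and Robo2 3.93 on the log2 (level + 1) scale. Ncam1 stood at 282 (269 to 295) in Isl1CKO insulin-high, 267 (256 to 277) in control glucagon-high and 249 (236 to 262) in control somatostatin-high cells, and each of these neighbours overlapped. It was 197 (193 to 201) in Fev-positive, 187 (180 to 195) in control insulin-high and 152 (148 to 155) in Ttr-high cells, where the first and the second of these overlapped. By level Ncam1 was thus among the members higher in the Isl1CKO insulin-high cells, and lowest in the Isl1CKO Ttr-high cells. Relative to the median ratio of all genes compared, Ncam1 had a log2 ratio of −0.61 in Ttr-high against Isl1CKO insulin-high cells. The latter were at 0.74 against control insulin-high cells. The lowest rank of Ttr-high cells by level therefore need not hold on this scale.

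By level, Epcam was highest in control somatostatin-high cells at 1609.5 (1577 to 1643), then in Isl1CKO Ttr-high cells at 1279 (1268 to 1289.6) and Fev-positive cells at 1103 (1094 to 1113). It was 705 (688 to 722) in control glucagon-high, 607 (594 to 620.5) in control insulin-high and 584 (566 to 603) in Isl1CKO insulin-high cells, where the last 2 overlapped. A UMI was found in 99.1% or more of the cells of each of these 6 classes, and thinned shares ran from 65.1% in Isl1CKO insulin-high to 94.9% in somatostatin-high cells. Mesenchymal-marked cells stood at 63.7 in control and 30.9 in Isl1CKO. The 865 Fev-positive cells in no other class had 790 (775 to 804), below the Ttr-high cells. Relative to the median ratio of all genes compared, Epcam had a log2 ratio of 1.40 in somatostatin-high against control insulin-high cells. It was at 1.42 in Ttr-high against Isl1CKO insulin-high cells, and the latter were at 0.09 against control ones. The order of somatostatin-high and Ttr-high cells by level therefore need not hold on this scale.

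Gjd2 was a transcript of insulin-high cells and was lower in those of the Isl1CKO library. The level was 201 (194 to 209, 2676 UMIs) in control and 103 (95.2 to 111, 685 UMIs) in Isl1CKO insulin-high cells. It was 49.6 (44.0 to 55.7) in control somatostatin-high, 36.2 (34.6 to 37.9) in Fev-positive, 28.0 (24.7 to 31.6) in control glucagon-high and 22.3 (20.9 to 23.8) in Ttr-high cells, and no neighbours in this order overlapped. A UMI was found in 90.0% of control and 76.8% of Isl1CKO insulin-high cells, with thinned shares of 32.4% and 19.1%. The control free-RNA level was 49.5 (40.0 to 60.5), near that of control somatostatin-high cells and above that of control glucagon-high cells. It was also above those of Isl1CKO Fev-positive and Ttr-high cells. The level in mesenchymal-marked control cells, which should lack the gene, was 1.93. Those cells held 517793 non-hormone UMIs in all, so this level rests on very few UMIs.

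**Figure D2:**
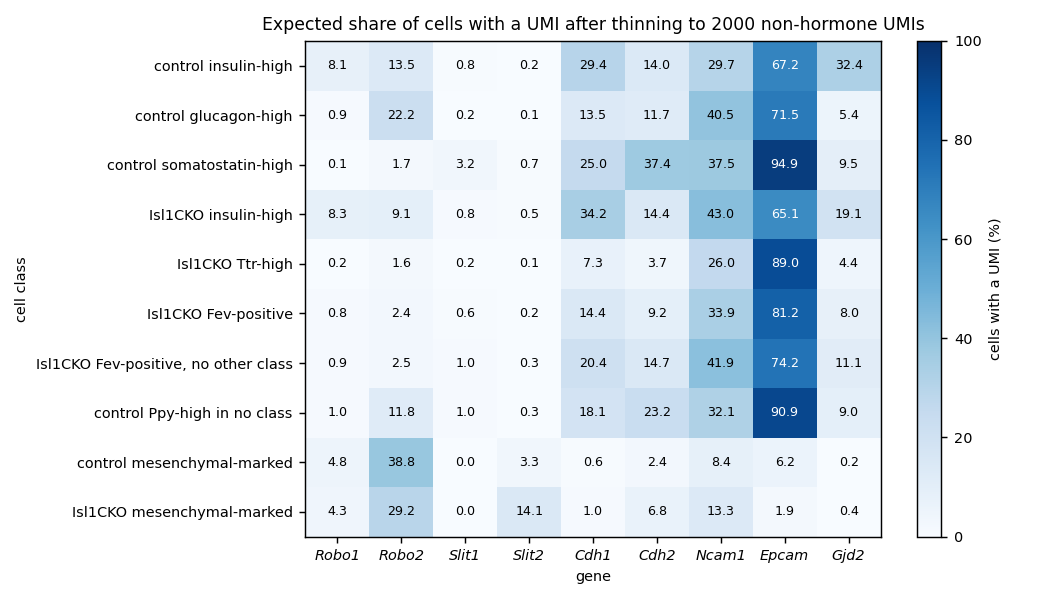
Share of cells (%) in which each gene (columns) would be expected to have a UMI after thinning every cell to 2000 non-hormone UMIs, for 10 cell groups (rows); darker blue is a higher share. Gjd2 is at 32.4% in control and 19.1% in Isl1CKO insulin-high cells, and Robo2 at 22.2% in control glucagon-high and 1.63% in Ttr-high cells.

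Between the libraries as wholes, 3 of the 9 genes, Robo1, Robo2 and Gjd2, were at least 2-fold lower in Isl1CKO cells relative to the median gene, and none was 2-fold higher. Of 14087 genes compared, 6.98% were 2-fold lower and 5.34% higher. The median gene had a log2 ratio of −0.33, and ratios here are relative to it. Robo2 went from 79.8 in control to 13.6 in Isl1CKO cells, a relative log2 ratio of −2.22 (−2.33 to −2.11). Robo1 went from 19.6 to 6.36 (−1.29, −1.47 to −1.12), and Gjd2 from 102 to 39.5 (−1.04, −1.11 to −0.97). Cdh2 was just inside the limit, at 104 and 41.5 (−0.99, −1.06 to −0.92). Slit1 had −0.89, Cdh1 −0.46, Slit2 −0.36, Ncam1 0.15 and Epcam 0.62, and the median of the 9 was −0.89 beside 0 for all genes by construction. Sums over all cells depend on which classes a library holds as well as on the levels in each, and the share of each was not tested. Without the cells in several classes, and with the mean of per-cell levels, Robo2 was the only member past the limit. Without cycling cells Gjd2 was at −0.997. Scaled to all UMIs and not centred, Robo2 was lower (−1.64) and Epcam higher (1.20), while Robo1 (−0.71) and Gjd2 (−0.46) were not past the limit. The summed mesenchymal markers stood at 271 in control and 62.7 in Isl1CKO cells. Without the mesenchymal-marked cells Robo2 was still at −2.22, and Cdh2 passed the limit at −1.02.

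Within insulin-high cells none of the 7 members with enough UMIs was past 2-fold, where 9.13% of 10675 genes were, and the median gene had a log2 ratio of −0.15. Gjd2 had the largest difference, a relative log2 ratio of −0.82 (−0.95 to −0.70), followed by Ncam1 at 0.74 (0.65 to 0.82) and Robo2 at −0.56 (−0.75 to −0.37). Cdh1 was at 0.37 (0.27 to 0.47), Cdh2 at 0.18 (0.03 to 0.34), Epcam at 0.09 (0.04 to 0.15) and Robo1 at 0.08 (−0.13 to 0.29). The median of the 7 was 0.09. Scaled to all UMIs and not centred, Ncam1 was past 2-fold, with a log2 ratio of 1.14. Slit1 (52 and 28 UMIs) and Slit2 (13 and 15 UMIs) fell under the minimum of 50 UMIs. Summed over their markers, other cell types stood at levels of 2.03 in control insulin-high and 0.150 in Isl1CKO insulin-high cells for mesenchyme (1 and 5 of the 6 markers at 0), 136 and 151 for acinar and 427 and 503 for ductal cells. In the same order they were 7.22 and 18.4 for endothelial, 21.4 and 7.95 for immune, 12.5 and 10.2 for Schwann or neural cells and 134 and 53.1 for cycling genes. Their part in these ratios was not tested.

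**Figure D3:**
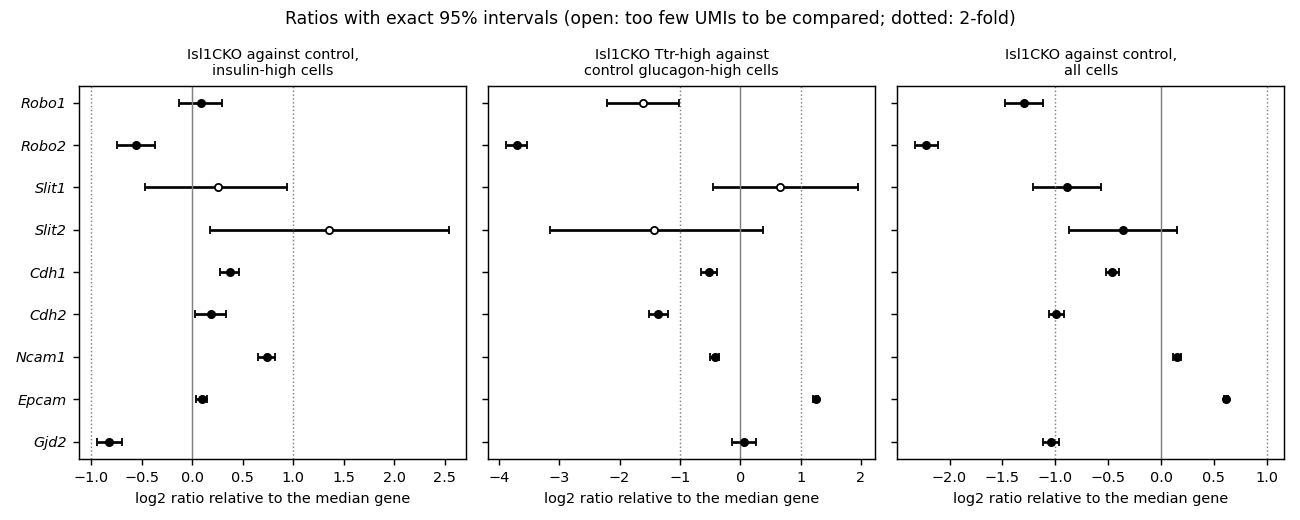
Log2 ratio of each gene relative to the median gene (horizontal axis) with exact 95% intervals, for insulin-high cells, for Isl1CKO Ttr-high against control glucagon-high cells, and for all cells; open points had too few UMIs and dotted lines mark 2-fold. In insulin-high cells every filled point lies inside the dotted lines, and Robo2 lies at −3.70 in the middle panel.

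The insulin-high cells of the libraries differed in insulin share, with a median of 65.5% of UMIs in control and 50.4% in Isl1CKO, so levels were also read in cells matched for it. In the cells at 20 to 40% (112 Isl1CKO and 40 control), Robo2 was 30.2 in Isl1CKO and 69.0 in control, at 40 to 60% (168 and 185 cells) 50.6 and 69.5, and at 60 to 80% (103 and 668 cells) 63.7 and 78.8. The relative log2 ratios of Robo2 were −1.24 (−1.80 to −0.67), −0.35 (−0.66 to −0.04) and −0.08 (−0.40 to 0.23). At 60 to 80% the interval for Robo2 therefore included no difference. There 84 of the 103 Isl1CKO cells had Xist and no Y-linked UMI, whereas 483 of the 668 control cells had a Y-linked UMI. At 40 to 60%, Isl1CKO cells with a Y-linked UMI had Robo2 at 38.7 (27.9 to 52.3). Those with Xist and no Y-linked UMI had 58.4 (47.4 to 71.1), against 70.2 and 72.8 in control. The part of each in the Robo2 ratios was not tested.

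Gjd2 stayed lower at each insulin share. It was 76.7 in Isl1CKO and 144 in control at 20 to 40%, 109.5 and 174 at 40 to 60%, and 129 and 214 at 60 to 80%. The relative log2 ratios were −0.96 (−1.33 to −0.58), −0.56 (−0.76 to −0.35) and −0.50 (−0.72 to −0.29). Robo1 was 15.5 and 21.0, then 47.2 and 47.1, then 70.3 and 44.1, the last a ratio of 0.90 (0.58 to 1.21). Ncam1 had ratios of 0.33, 0.45 and 0.78, and Cdh1 of −0.15, 0.44 and 0.68. At 80% or more there were 5 control cells and 0 Isl1CKO cells.

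**Figure D4:**
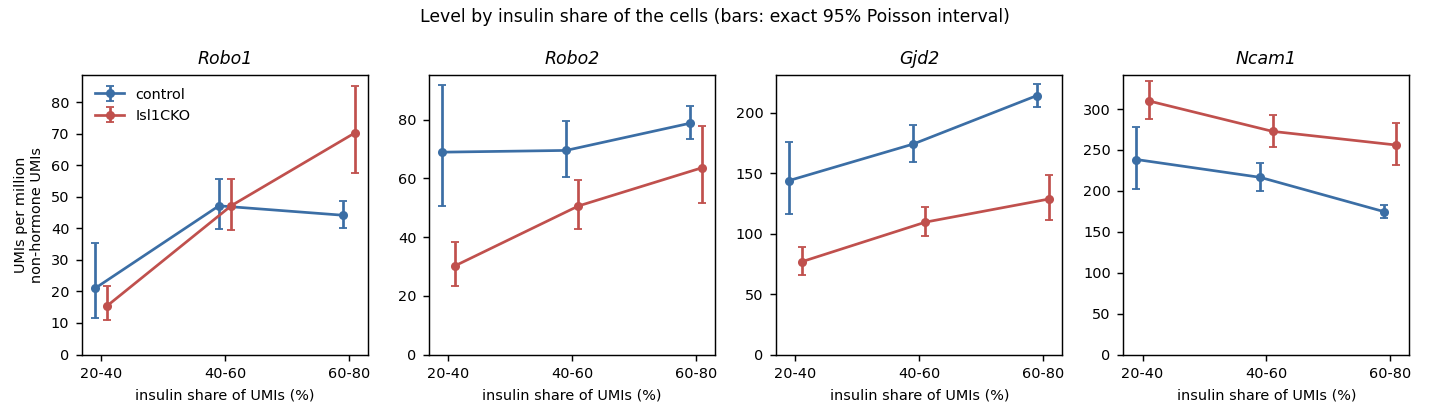
Level (UMIs per 1000000 non-hormone UMIs) of Robo1, Robo2, Gjd2 and Ncam1 in insulin-high cells by the share of their UMIs that is Ins1 and Ins2, for control (blue) and Isl1CKO (red), with exact 95% Poisson intervals. Gjd2 is lower in Isl1CKO in all 3 bins, Ncam1 higher in all 3, and Robo1 crosses from 15.5 against 21.0 to 70.3 against 44.1.

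Cells with a Y-linked UMI were 73.5% of control and 62.4% of Isl1CKO cells, and in insulin-high cells the Robo1 comparison turned with that UMI. Within the Isl1CKO pool their share was 58.8% in Ttr-high cells and 78.2% in Fev-positive cells in no other class. Of the insulin-high cells they were 72.5% in control and 37.1% in Isl1CKO. Among cells with a Y-linked UMI (651 control and 142 Isl1CKO), Robo1 was 45.6 (41.5 to 49.996) in control and 15.4 (11.1 to 20.7) in Isl1CKO, a relative log2 ratio of −1.36 (−1.85 to −0.91). Among cells with Xist and no Y-linked UMI (188 and 221), Robo1 was 40.5 (33.3 to 48.7) in control and 63.8 (55.8 to 72.7) in Isl1CKO, a ratio of 0.76 (0.428 to 1.101). Robo1 was thus lower than control in the Y-positive and higher in the Xist-only insulin-high cells.

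Robo2 and Gjd2 were also lower in the Y-positive Isl1CKO cells than in the Xist-only ones. Robo2 was 31.8 against 80.3 in Y-positive cells (−1.13, −1.47 to −0.82) and 58.3 against 63.8 in Xist-only cells (−0.03, −0.32 to 0.27), Isl1CKO first. Gjd2 was 87.6 against 203 (−1.01, −1.21 to −0.82) and 116 against 197 (−0.66, −0.85 to −0.47). In the Y-positive cells 3 of 7 members were thus 2-fold lower (4.8% of all genes were, and 4.01% higher), and in the Xist-only cells none was past 2-fold in either direction (8.04% of all genes). Ncam1 was at 0.79 and 0.70 in the respective comparisons, Cdh1 at 0.20 and 0.50, Cdh2 at 0.14 and 0.21 and Epcam at 0.18 and 0.00.

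Within the Isl1CKO insulin-high cells, Y-positive cells had a Robo1 level 2.02 log2 units below Xist-only cells (−2.52 to −1.54), the only 1 of 7 members past 2-fold, where 0.891% of genes were lower and 1.25% higher. Within control the same contrast gave 0.13 (−0.17 to 0.44), with no member past 2-fold and 1.33% of genes. The Isl1CKO cells of the 2 kinds also differed in insulin share, with medians of 40.5% and 57.4%, and in Fev, with medians of 3 and 1 UMIs. At a matched share of 40 to 60%, Robo1 was 19.3 (12.0 to 29.6) in 59 Y-positive and 66.0 (54.4 to 79.4) in 100 Xist-only Isl1CKO cells, against 47.4 and 50.2 in control. At 20 to 40% it was 9.91 (5.55 to 16.3) and 28.7 (17.3 to 44.9). Gjd2 at 40 to 60% was 95.7 (78.2 to 116) in Y-positive and 117 (102 to 135) in Xist-only Isl1CKO cells, against 172 and 177 in control. A library is 1 pool, and sex, animal of origin and litter cannot be told apart within it.

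**Figure D5:**
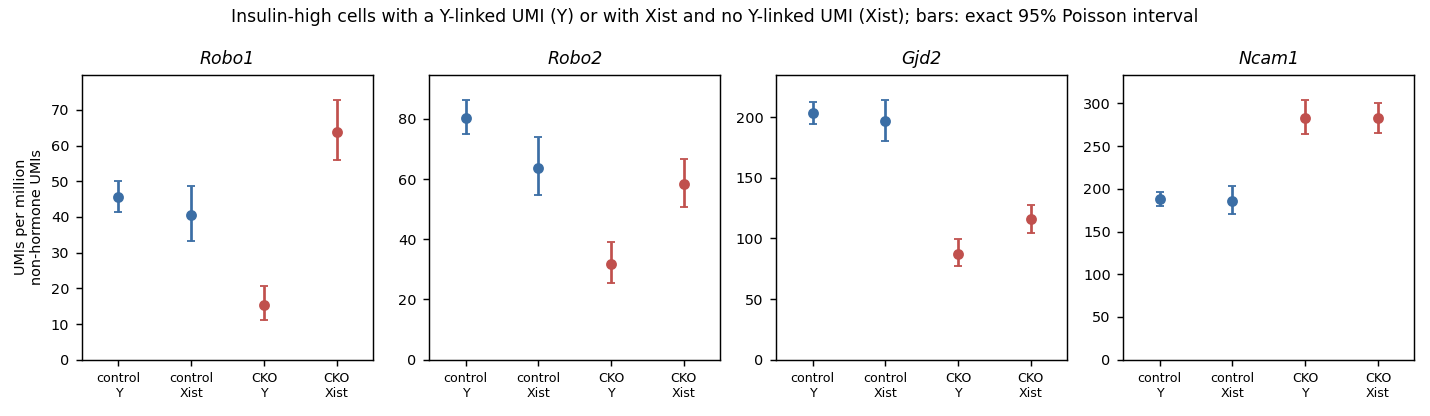
Level (UMIs per 1000000 non-hormone UMIs, linear from 0) of Robo1, Robo2, Gjd2 and Ncam1 in insulin-high cells of the control (blue) and Isl1CKO (red) libraries, split into cells with a Y-linked UMI and cells with Xist and no Y-linked UMI; bars are exact 95% Poisson intervals. Robo1 is at 15.4 in the Y-positive and 63.8 in the Xist-only Isl1CKO cells, while the control cells stand at 45.6 and 40.5.

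Fev marked a difference in Robo1 within the Isl1CKO insulin-high cells. The 145 cells with 3 or more Fev UMIs had Robo1 at 23.0 (17.8 to 29.2) and the 238 without at 56.2 (48.9 to 64.3), a relative log2 ratio of −1.23 (−1.65 to −0.83). Robo2 was at 32.3 and 57.8 (−0.78, −1.15 to −0.43), Gjd2 at −0.52 and Ncam1 at −0.01. Robo1 was the only member of 7 past 2-fold, where 0.4% of all genes were lower and 0.723% higher. The insulin share differed here too, with medians of 39.9% and 56.2%, and Y-positive cells were 52.4% and 27.7%. The part of each in the Robo1 difference was not tested. Compared with all control insulin-high cells, the cells without Fev had 0 of 8 members past 2-fold (9.18% of all genes), with Robo1 at 0.53 and Gjd2 at −0.58.

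In the Isl1CKO Ttr-high cells, read against control glucagon-high cells, Robo2 and Cdh2 were lower and Epcam higher. These were 3 of the 6 members compared, where 9.28% of 11422 genes were 2-fold higher and 7.36% lower. The median gene had a log2 ratio of −0.39. Robo2 had a relative log2 ratio of −3.70 (−3.88 to −3.53), below which lay 0.359% of the genes compared. Cdh2 was at −1.36 (−1.51 to −1.20), Epcam at 1.25 (1.21 to 1.28), Cdh1 at −0.52, Ncam1 at −0.43 and Gjd2 at 0.06 (−0.14 to 0.26). The median of the 6 was −0.47. Without centring Epcam was at 0.86, no longer past 2-fold. Robo1, Slit1 and Slit2 had under 50 UMIs in the class where each was higher: 46 for Robo1 and 6 for Slit2 in control glucagon-high cells, and 45 for Slit1 in Ttr-high cells.

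The Robo2 difference was present in both sexes of cells. It was −3.34 (−3.54 to −3.14) in Y-positive cells, 10.2 against 133, and −4.77 (−5.17 to −4.38) in Xist-only cells, 4.16 against 125. Cdh2 was at −1.35 and −1.64 and Epcam at 1.14 and 1.15 in the same cells, and again 1 member was higher and 2 lower of 6 in each. Of all genes 8.03% were higher and 6.76% lower in the Y-positive, and 10.1% higher and 9.42% lower in the Xist-only cells. Ttr-high cells with and without Fev did not differ past 2-fold in any of 6 members, where 0.4% of all genes did, and Robo2 was 7.66 and 7.92 there. The class is defined by Ttr and the control class by Gcg, so the 2 need not hold the same cells. Cycling cells (2 or more UMIs of 5 proliferation genes) were 21.5% of the Ttr-high and 13.6% of the control glucagon-high cells; without them the class comparison still had 1 member higher and 2 lower.

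In control, 4 of 8 members were at least 2-fold lower in glucagon-high than in insulin-high cells (8.08% of all genes were lower and 9.43% higher). These were Robo1 at −3.05 (−3.51 to −2.61), Gjd2 at −2.76 (−2.95 to −2.58), Slit1 at −2.09 (−3.38 to −1.01, from 8 and 52 UMIs) and Cdh1 at −1.23 (−1.36 to −1.10). Robo2 was at 0.87 (0.75 to 0.99), Ncam1 at 0.59, Epcam at 0.30 and Cdh2 at −0.21. The receptors thus lay on opposite sides of the median gene in this comparison. Scaled to all UMIs and not centred, 3 members were lower (Robo1, Gjd2 and Slit1) and 3 higher, Robo2 at 1.91, Ncam1 at 1.63 and Epcam at 1.34.

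In control somatostatin-high against insulin-high cells, 3 of 8 members were higher and 3 lower, where 9.11% of all genes were higher and 6.99% lower. Robo1, Robo2 and Gjd2 were lower, at −6.97 (−10.02 to −5.11, from 2 UMIs), −2.86 (−3.26 to −2.49) and −2.02 (−2.21 to −1.85). Slit1, Cdh2 and Epcam were higher, at 2.003 (1.495 to 2.525), 1.62 (1.51 to 1.74) and 1.40 (1.36 to 1.45). Ncam1 was at 0.41 and Cdh1 at −0.30. Scaled to all UMIs and not centred, Ncam1 (1.57) was also higher and Gjd2 (−0.87) was not past 2-fold.

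In the Isl1CKO library, 5 of 7 members were lower and 1 higher in Ttr-high than in insulin-high cells, where 10.2% of all genes were lower and 13.3% higher. Robo1 was at −4.78 (−5.22 to −4.35), Robo2 at −2.31, Cdh1 at −2.16, Gjd2 at −1.92 and Cdh2 at −1.78, whereas Epcam was at 1.42 (1.37 to 1.46). Fev-positive cells had 4 of 7 lower and 1 higher (5.52% of all genes lower and 11% higher): Robo1 at −3.40, Robo2 at −1.996, Cdh1 at −1.48, Gjd2 at −1.39 and Epcam at 1.04. Scaled to all UMIs and not centred, Cdh2 in Ttr-high cells (−0.95) and Cdh1 (−0.56) and Gjd2 (−0.47) in Fev-positive cells were not past 2-fold, and without centring alone Epcam in Fev-positive cells (0.92) was not. These comparisons share the insulin-high cells, and Fev-positive and Ttr-high cells overlap.

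Fev-positive cells in no other class, set against insulin-high cells without Fev so that no cell is in both, kept 4 of 8 lower and none higher (3.56% of all genes were lower and 7.54% higher). Robo1 was at −3.57 (−3.97 to −3.18), Robo2 at −2.20 (−2.48 to −1.91), Gjd2 at −1.15 (−1.31 to −0.98) and Cdh1 at −1.08 (−1.20 to −0.96). Epcam was at 0.43, Cdh2 at −0.12 and Ncam1 at −0.12. Their levels were 115 for Cdh1 and 281 for Ncam1, each above those of the Ttr-high cells. The depth of these cells was lower, with a median of 15567 non-hormone UMIs against 28884 in Ttr-high cells.

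Related genes were read from 6 lists that do not hold the 9 members. Over all cells, where 6.98% of all genes were 2-fold lower and 5.34% higher, 3 of 21 Robo-Slit pathway and netrin genes were 2-fold lower and none higher in Isl1CKO, with a median relative log2 ratio of −0.03. The lowest were the netrin receptors Unc5c at −1.86 and Unc5b at −1.77, and the highest were Unc5a at 0.74 and the netrin Ntn4 at 0.66. Among cadherins, nectins and catenins 6 of 18 were lower (median −0.17), led by Cdh8 at −3.29 and Cdh11 at −2.29, with Nectin4 at 0.51 and the actin-linking vinculin gene Vcl at 0.32 the highest. Of the NCAM and L1 family, 4 of 15 were lower and 1 higher (median −0.26), with Chl1 at −3.61 and Ncam2 at −3.02 lowest and Mcam at 1.37 and Cntn4 at 0.61 highest.

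Gap junction genes had 4 of 7 lower and a median of −1.11, with the connexin Gjc1 at −1.75 and the pannexin Panx1 at −0.11. Of Epcam partners and epithelial adhesion genes 2 of 16 were lower (median 0.25): the tetraspanin Tspan8 at −1.40 and the hyaluronan receptor Cd44 at −1.33, with Cd81 at 0.94 and Spint2 at 0.79 highest. Ephrins and their receptors had 4 of 13 lower and 1 higher (median 0.05), with Epha5 at −3.17 and Efnb3 at −1.55 lowest and Efna3 at 2.27 and Efna5 at 0.51 highest. These sums over all cells also depend on the classes held. Efnb3 was 92.4 in control somatostatin-high and 5.42 in control insulin-high cells, but 10.6 in Isl1CKO insulin-high cells. The part of class make-up in the list ratios was not tested.

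Within insulin-high cells fewer of these genes could be compared, and 4.38% of all genes were 2-fold lower and 4.75% higher. Of 18 Robo-Slit pathway genes 2 were lower, again Unc5c (20.3 in control and 3.45 in Isl1CKO, a relative log2 ratio of −2.41) and Unc5b at −1.61, while Unc5a was at 0.85 and the Robo-binding GTPase regulator Srgap2 at 0.75. Of 15 cadherin and catenin genes 3 were lower, with Cdh8 at −2.36 (17.1 and 3.00) and Ctnna2 at −1.57 lowest and Vcl at 0.99 and Nectin4 at 0.96 highest. In the NCAM and L1 family 2 of 7 were lower and 1 higher, Cadm1 at −1.40, Cntn1 at −1.33 and Cntn3 at 2.02, with Fgfr1, a receptor that NCAM binds, at 0.96.

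Cd44 was higher in Isl1CKO insulin-high cells, at 96.6 against 46.9 (1.19, 1.03 to 1.35), the only 1 of 16 epithelial adhesion genes past 2-fold there, although it was lower over all cells. Cd81 was at 0.70, Tspan8 at −0.62 and Itga3 at −0.42. Of 6 ephrin and Eph genes 3 were higher and none lower (median 0.82), including the receptor Ephb2 at 18.1 against 5.12 (1.97, 1.53 to 2.42) and the ligand Efna5 at 1.31, with Efna2 at 0.29 and Epha7 at −0.51. Of the gap junction list, the tight junction gene Tjp1 was at −0.42, and no connexin had enough UMIs to be set beside Gjd2. The medians were 0.24 for the Robo-Slit pathway, −0.01 for cadherins and catenins, 0.31 for the NCAM and L1 family and 0.14 for epithelial adhesion.

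Genes most like a member across the 6 classes were found by Pearson's r of log2 (level + 1) among 6777 candidate genes. The classes share cells and libraries, so r is a description. With 6 classes and this many candidates, the best r can be high for any profile. Pearson's r also ignores the size of a difference. Zmpste24, named below for Gjd2, ran only from 80.1 in control insulin-high to 37.7 in Ttr-high cells, whereas Gjd2 spanned 3.12 log2 units. Robo1 was most like St3gal3, Wdr25 and C6 (r of 0.994, 0.991 and 0.990). Robo2 was most like Spata13, Gm2531 and Tenm2 (0.990, 0.989 and 0.988), and Gjd2 most like Zmpste24, 4933417E11Rik and Nus1 (1.00, 0.998 and 0.997). Cdh1 was most like Eef2k, Arhgap26 and Tet3 (0.997, 0.994 and 0.994), and Cdh2 most like Cd47, Fndc5 and Ccdc114 (1.00, 0.998 and 0.997). Ncam1 was most like Efcc1, Etl4 and Zfp827 (0.998, 0.995 and 0.991), and Epcam most like Arhgap27, Apof and Serpinh1 (0.995, 0.991 and 0.989). Slit1 was most like Sh2d3c, Slc19a1 and Fgfr4 (0.995, 0.993 and 0.991), and Slit2 most like Zfp85, C1qa and Sfxn5 (0.997, 0.992 and 0.987). Among the members themselves, the highest r over the 6 classes were 0.92 for Slit2 with Cdh2 and 0.91 for Slit1 with Slit2, and the lowest was −0.93 for Robo1 with Epcam.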

How the data were processed

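Sorted tdTomato+ islet cells of P9 mice were profiled with 10x Chromium 3′ v3.1 chemistry, per the labels' protocols. The matrices the authors deposited hold raw UMI counts of 46983 genes in each barcode. STARsolo, STAR 2.7.3a, GRCm38.p6 and Seurat 4.3.0.1 appear, with no role stated, in the submitters' processing notes. Strand setting and annotation release are not given in the sources used here. Cells were dissociated with actinomycin D, which blocks transcription, per the labels' protocols. Of 6794880 control barcodes, those with at least 6825 UMIs were taken as cells, a threshold set at the 99th percentile of the top 3000 barcodes divided by 10. All 3020 Isl1CKO barcodes were kept, down to 4882 UMIs, so the libraries were filtered differently.

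UMIs were summed per class and scaled per 1000000 UMIs outside the hormone genes. A gene was compared when the sum with the higher level held 50 or more UMIs. It was counted as higher or lower at 2-fold from the median ratio of all genes compared. Where a sum was 0, a floor of 3 UMIs was used. Ratios carry exact conditional binomial intervals, shares exact Clopper-Pearson intervals and sums exact Poisson intervals, all at 95%. Thinned shares are expected values at 2000 UMIs and leave out shallower cells (3 control insulin-high cells). No doublet caller was run, and cells in several classes were left out as an alternative. The calculations were tested on simulated data.

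Genes named are the 9 members, the 2 highest and 2 lowest of each list in all cells and in insulin-high cells, and the 3 most like each member; a few genes of these lists are not reported here. The members and lists were chosen with earlier results of these data known. Afdn and the nectins were matched by older symbols. The tools were matplotlib 3.10.9, pandas 2.3.3, scipy 1.17.1 and numpy 2.4.6 under Python 3.11.15.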

Additional observations from a re-analysis of the deposited data

Results flagged for a closer look

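For 3 members the Isl1CKO library lay on opposite sides of control, relative to the median gene, in the insulin and the alpha-related cells, with intervals that both exclude 0. Cdh1 was at 0.37 in insulin-high cells and at −0.52 in Ttr-high against glucagon-high cells, on the log2 scale. Cdh2 was at 0.18 and −1.36, and Ncam1 at 0.74 and −0.43. Without centring, Cdh2 in insulin-high cells was at 0.04. At insulin shares of 20 to 40%, 40 to 60% and 60 to 80% Cdh2 was at 0.08, 0.11 and 0.12, with intervals that included 0. Cdh1 was at −0.15 at 20 to 40%, with an interval that included 0, and at 0.44 and 0.68 at the higher shares. For Robo1 in insulin-high cells, the cells with a Y-linked UMI were at −1.36 and those with Xist and no Y-linked UMI at 0.76. With 1 library per genotype these differences between groups were not tested.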

How the results depend on the processing

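No paired analysis was possible because each genotype has 1 library. For the same reason no library could be left out. Of 990 ratios of members under alternative settings, 741 stayed within the interval of the reported value, 247 lay outside it and 2 reversed, meaning that a value past 2-fold as reported changed sign. Of all 990, 34 had another sign than the reported value, in 17 of 63 member comparisons, among them Robo1 (−1.36 to 0.90) and Epcam (−0.26 to 0.49) in insulin-high cells. The 2 are Slit2 in insulin-high cells, reported at 1.35 from 13 and 15 UMIs, which was −0.81 at an insulin share of 20 to 40% and −2.41 at 40 to 60%. Of 378 levels, 333 stayed within the interval and 45 did not. The insulin-share bins, and leaving out mesenchymal-marked cells, were added after the data were seen. So were the restriction to cells with Xist and no Y-linked UMI and the leaving out of Fev-positive insulin-high cells.

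The 3 members past 2-fold over all cells became 1 without the cells in several classes and 1 with the mean of per-cell levels, and 5 without centring on the median gene. The 0 in insulin-high cells became 1 with scaling to all UMIs (Ncam1) and 3 in cells with a Y-linked UMI. The 5 in Fev-positive against insulin-high cells became 3 with scaling to all UMIs and 3 in cells with a Y-linked UMI. The cause was not tested. Counts of members in both directions together stayed within 1.5 times in the other 4 comparisons, but the directions did not: scaled to all UMIs, control glucagon-high against insulin-high cells had 3 higher and 3 lower, against 0 and 4 as reported, and somatostatin-high 4 and 2, against 3 and 3. Under scaling to all UMIs Cdh1 over all cells was at 0.12, against −0.46 as reported.

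Scaling to all UMIs, which include the hormone transcripts, moved the median log2 ratio of all genes over all cells from −0.33 to 0.58, and in insulin-high cells from −0.15 to 0.41. The higher share of called genes then went from 43.3% to 82.8% over all cells, from 52% to 81.3% in insulin-high cells, from 55.8% to 68.7% in Ttr-high against glucagon-high cells, from 56.6% to 91.1% in Ttr-high against insulin-high cells and from 66.5% to 97.0% in Fev-positive cells. In control it went from 53.8% to 94.3% for glucagon-high and from 56.6% to 96.0% for somatostatin-high cells. Without centring it was 22.8% over all cells, 40.9% in insulin-high cells, 23.2% for Ttr-high against glucagon-high and 40.1% for Ttr-high against insulin-high cells. Called genes over all cells numbered 1735, and 2952 with all UMIs. They went from 2637 to 5348 in Ttr-high and from 1912 to 5342 in Fev-positive against insulin-high cells, and in control from 1976 to 6283 for glucagon-high and from 1718 to 6952 for somatostatin-high cells. In insulin-high cells they were 9.13% of 10675 genes as reported, 1507 with a minimum of 20 UMIs and 624 in Xist-only cells, and 238 of 4244 and 502 of 7738 genes at insulin shares of 20 to 40% and 40 to 60%. Slit1 and Slit2 were under the minimum of 50 UMIs in insulin-high cells.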
